A study of Mus musculus with 12 samples.

Results

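The interleukin-1 receptor axis was followed through 6 genes, Il1b, Il1rn, Il1r1, Il1rap, Myd88 and Irak1, among the 11791 genes of a mouse liver RNA sequencing table. They were taken by gene name, and all 6 were present. Il1r1 and Il1rn had been picked because their levels in the knockout pools differed from control, so their knockout values are described here without a test. The table covers 12 pools of liver RNA in 3 groups of 4 pools. All animals were C57BL/6 males aged 10 weeks that had received a diet deficient in methionine and choline (MCD), which produces steatohepatitis in mice, for 3 weeks. Lyzs-Cre, a recombinase driven by lysozyme gene sequences and active in myeloid cells, was present in all 3 groups. The control group carried this transgene alone. The knockout group (KO) had the genotype label Lyzs cre p38g/d, a deletion of the stress kinases p38γ and p38δ directed to myeloid cells. The anti-Ly6G group had the control genotype, and its animals were given antibody to the neutrophil surface molecule Ly6G (GR1 in the sample titles). Each pool mixed RNA of 2 animals, and p-values measure the spread between such pools. The mitochondria of these animals came from 1 of 2 strains. The label was C57 for every control pool and for KO 1 and KO 2. It was NZB for KO 3, KO 4 and every anti-Ly6G pool. The antibody and the NZB label therefore cannot be told apart in a comparison with control.

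Interleukin-1β is an inflammatory cytokine that myeloid cells make as a precursor and that caspase-1 cuts into its active form. It binds the receptor encoded by Il1r1, which then recruits the co-receptor encoded by Il1rap. Their joined intracellular domains bind the adaptor MyD88 and kinases of the IRAK family, and the signal passes through TRAF6 to NF-κB. The product of Il1rn occupies the receptor without recruiting the co-receptor and so blocks the cytokine. In liver, hepatocytes, stellate cells and endothelial cells respond to interleukin-1, and in hepatocytes it induces acute phase proteins.

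The deposited signal is in reads per 1e6 of a scaled library size (RPM). Whole reads recovered from it gave between 13.1 and 22.3 M reads per pool (M, 1e6). Hepatocyte markers were abundant throughout, with the 5 genes of that list summing to 91555 to 131831 RPM per pool. Mapk12, which encodes p38γ, lay at 1.75 to 2.71 RPM in control and 1.63 to 3.06 RPM in KO. Mapk13, which encodes p38δ, was not among the measured genes. Whole liver RNA comes mostly from cells in which Lyzs-Cre is not active, so the Mapk12 level does not check the deletion.

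The 5′ ends of the cytokine gene, of its antagonist and of the receptor are shown because Il1rn and Il1r1 have separate starts that a gene-level table cannot separate. RefSeq (GRCm38.p6) gives Il1r1 a pair of starts separated by 41506 bases and Il1b a single start. It gives Il1rn 3 starts, of which the first and second lie 8431 bases apart. The third lies 80 bases after the second and its window, which overlaps the second, is not printed. For the other 5 starts, the 250 bases before the start are given 5′ to 3′ on the gene's strand. Capitals mark matches, on either strand, to TATAAA (the TATA box), TGANTCA (the AP-1 site), TTCNNNGAA (the STAT site), GAGGAA (an ETS-type site) or the κB consensus.
Il1b, chr2:129371140-129371389, minus strand: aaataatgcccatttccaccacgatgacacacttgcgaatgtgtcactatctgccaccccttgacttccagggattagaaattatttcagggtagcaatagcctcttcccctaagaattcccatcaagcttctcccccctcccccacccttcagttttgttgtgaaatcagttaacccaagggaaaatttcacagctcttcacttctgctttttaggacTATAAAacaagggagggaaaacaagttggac
Il1rn upstream start, chr2:24336610-24336859, plus strand: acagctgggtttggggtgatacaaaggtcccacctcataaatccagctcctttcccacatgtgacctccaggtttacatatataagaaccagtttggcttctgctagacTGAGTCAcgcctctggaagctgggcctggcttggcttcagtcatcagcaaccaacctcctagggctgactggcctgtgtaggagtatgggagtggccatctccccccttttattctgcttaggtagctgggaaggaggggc
Il1rn downstream start, chr2:24345041-24345290, plus strand: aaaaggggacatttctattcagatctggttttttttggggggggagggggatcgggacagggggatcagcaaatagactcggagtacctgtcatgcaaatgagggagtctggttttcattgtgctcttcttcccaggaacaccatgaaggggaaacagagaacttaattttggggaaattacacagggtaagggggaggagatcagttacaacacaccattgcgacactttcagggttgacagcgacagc
Il1r1 upstream start, chr1:40224830-40225079, plus strand: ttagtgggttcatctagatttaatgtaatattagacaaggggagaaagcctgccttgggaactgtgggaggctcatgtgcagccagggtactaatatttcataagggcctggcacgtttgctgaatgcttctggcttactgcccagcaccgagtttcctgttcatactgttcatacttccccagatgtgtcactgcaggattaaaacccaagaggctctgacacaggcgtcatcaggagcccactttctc
Il1r1 downstream start, chr1:40266336-40266585, plus strand: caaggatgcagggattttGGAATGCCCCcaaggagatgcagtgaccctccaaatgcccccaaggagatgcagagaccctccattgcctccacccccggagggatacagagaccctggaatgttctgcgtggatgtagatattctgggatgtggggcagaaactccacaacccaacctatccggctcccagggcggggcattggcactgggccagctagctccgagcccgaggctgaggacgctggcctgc
The Il1b window holds TATAAA from 31 to 26 bases before the start, a motif present in 12.3% of the 32536 RefSeq windows of this length. The upstream Il1rn window holds TGAGTCA from 141 to 135 bases before the start, and TGANTCA occurs in 6.73% of all windows. That motif reads the same way on both strands. The downstream Il1r1 window holds a κB match on the opposite strand, 232 to 223 bases before the start, and 7.28% of all windows hold one. None of the 5 motifs was found in the downstream Il1rn window or the upstream Il1r1 window. STAT and ETS-type matches, in none of the 5 windows, occur in 7.04% and 23.4% of all windows. These are matches of letters only.

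Per kilobase of annotated exon, Irak1 was the most abundant of the 6 genes in control pools and Il1b the least. The length-scaled levels in control were 13.2 ± 0.513 RPM per kb (SD, n = 4) for Irak1, 8.25 ± 0.413 for Myd88, 7.53 ± 0.886 for Il1rap, 6.97 ± 1.06 for Il1r1, 2.61 ± 0.673 for Il1rn and 2.29 ± 0.635 for Il1b. Irak1 stood clear of the other genes in every control pool, while Myd88, Il1rap and Il1r1 overlapped their neighbours in this order, as did Il1rn and Il1b. In KO the order changed in 1 place, with Il1rn at 4.31 ± 0.700 RPM per kb above Il1r1 at 3.82 ± 0.196, and their pools overlapped (3.67 to 5.31 and 3.60 to 3.99). In anti-Ly6G pools Il1r1 was at 5.04 ± 0.731 and Il1rn at 3.43 ± 0.292 RPM per kb, and Il1rap at 8.73 ± 0.720 was above Myd88 at 7.19 ± 0.778. The length is that of all annotated exons merged, which is longer than any 1 transcript and lowers the values of genes with many isoforms.

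**Figure D1:**
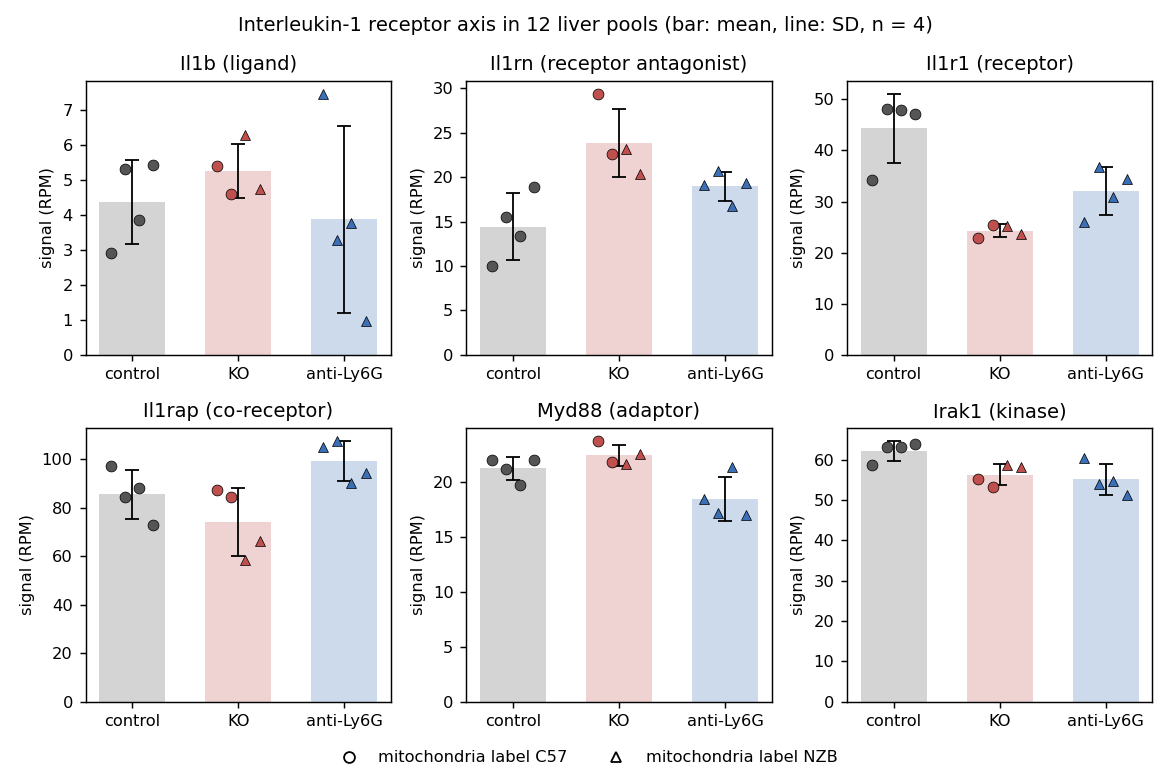
Signal in RPM (vertical axes) of the 6 genes in each of the 12 pools. Bars show group means and lines the SD of 4 pools. Circles are pools with the C57 mitochondria label and triangles pools with the NZB label. All KO pools lie below all control pools for Il1r1 and above them for Il1rn.

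Il1r1, the gene of the signalling receptor (ENSMUSG00000026072, chromosome 1, 40225080 to 40317257, plus strand, GRCm38), was at its lowest in KO. Control pools 1 to 4 read 34.3, 48.0, 47.9 and 47.1 RPM, KO pools 22.9, 25.4, 25.3 and 23.6 RPM, and anti-Ly6G pools 26.0, 36.7, 31.0 and 34.4 RPM. The KO pools lay below all control pools, as for 6.62% of all genes, and below all anti-Ly6G pools, as for 13.5%. The share of genes for which both hold was not counted. The anti-Ly6G pools overlapped control only through control pool 1. The mean was 44.3 ± 6.72 RPM in control and 24.3 ± 1.25 RPM in KO (SD, n = 4), a difference of -0.84 ± 0.12 (SE) on the log2(signal + 0.5) scale. This KO difference is the one the gene was picked for and carries no test. It ran from -0.96 (without control 1) to -0.80 when 1 pool was left out, and KO pools 1 and 2 alone, which share the controls' mitochondria label, gave -0.85. Within KO, the pools labelled C57 averaged 24.1 RPM and those labelled NZB 24.4 RPM.

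In anti-Ly6G pools Il1r1 fell to 32.0 ± 4.65 RPM, a difference from control of -0.46 ± 0.12 (SE; limma, adjusted p = 0.0116). In that comparison 30.4% of all 11791 genes were called at an adjusted p under 0.05, and Il1r1 was the 1 member of the 6 that was. The control pools that enter this test also entered the pattern by which Il1r1 was picked, so the p-value is not independent of that choice. The call held when any 1 pool of either group was left out, with differences of -0.58 to -0.37 and adjusted p from 0.00198 to 0.0380. When the fit also carried the label of the mitochondria as a covariate, the difference was -0.48 and did not pass (adjusted p = 0.176). In that fit the label is told apart from the treatment through the KO pools alone. Between KO and anti-Ly6G pools the difference was -0.38 ± 0.12 (SE, not tested), and -0.37 with KO pools 3 and 4 alone. In bulk tissue, fewer cells that carry the receptor and less receptor mRNA per cell cannot be told apart.

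Il1rn, the receptor antagonist gene (ENSMUSG00000026981, chromosome 2, 24336853 to 24351494, plus strand), was at its highest in KO. Control pools 1 to 4 read 10.0, 15.5, 13.4 and 18.9 RPM, KO pools 29.4, 22.6, 23.1 and 20.3 RPM, and anti-Ly6G pools 19.1, 20.7, 16.8 and 19.3 RPM. Every KO pool was above every control pool, as for 5.73% of all genes, and the anti-Ly6G pools lay between, overlapping both groups. The mean was 14.4 ± 3.72 RPM in control and 23.9 ± 3.87 RPM in KO, a difference of 0.73 ± 0.16 (SE). This too is the picked pattern and carries no test. It was 0.57 without control 1, 0.62 without KO 1 and up to 0.86 without control 4. KO pools 1 and 2 alone gave 0.85.

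Anti-Ly6G pools had 19.0 ± 1.61 RPM of Il1rn, which differed from control by 0.41 ± 0.16 (SE, 95% interval 0.07 to 0.76) and did not pass over all genes (limma, adjusted p = 0.0648). Control pool 4 decided this call, since without it the difference was 0.55 (adjusted p = 0.0156), and without control pool 1 it was 0.26 (adjusted p = 0.180). The control pools are again those that entered the choice of the gene. Between KO and anti-Ly6G the difference was 0.31 ± 0.16 (SE, not tested), and 0.19 with KO pools 3 and 4 alone. The transcripts of the intracellular forms and of the secreted form of the antagonist are summed in these values.

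Set against each other within a pool, the antagonist and the receptor gave ratios that separated all 3 groups. The ratio of length-scaled Il1rn to Il1r1 was 0.336, 0.370, 0.321 and 0.461 in control pools 1 to 4, 1.48, 1.02, 1.05 and 0.991 in KO pools, and 0.843, 0.647, 0.624 and 0.645 in anti-Ly6G pools. No pool of one group reached into the range of another. A ratio of this kind does not depend on the scaling of the library. It combines the 2 genes that were picked, so it is given without a test. These genes had opposite KO differences from control, so the separation of KO from control was fixed by that choice. How many other pairs of genes separate the groups in this way was not counted. The ratio of Il1r1 to Il1rap spanned 0.631 to 1.16 for control pools, 0.468 to 0.775 for KO pools and 0.443 to 0.652 for anti-Ly6G pools, with control pool 1 inside the range of the other groups.

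**Figure D2:**
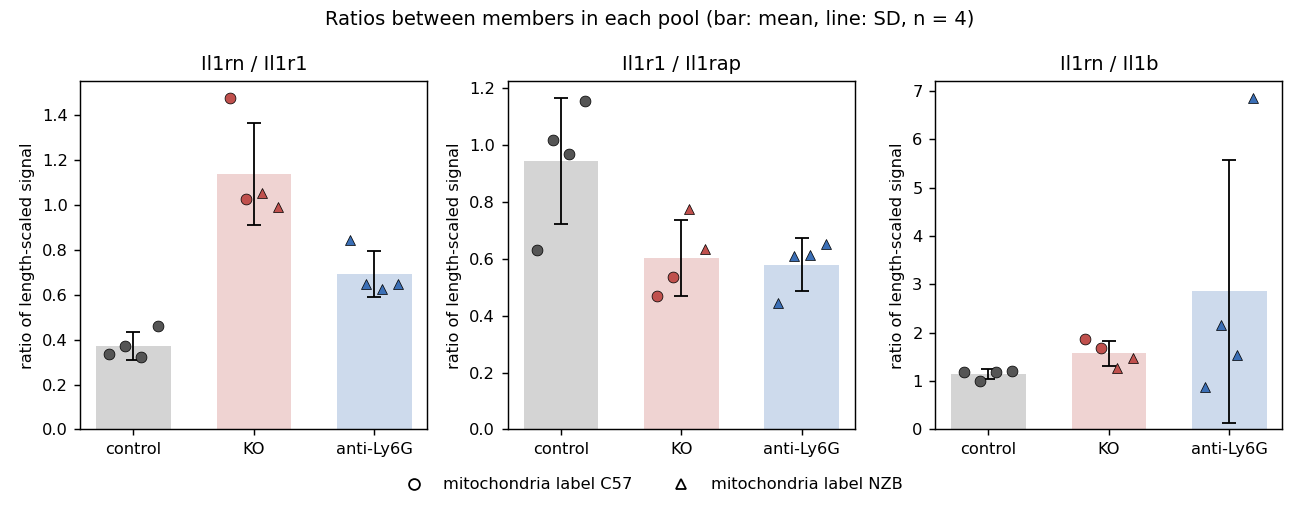
Ratios between length-scaled signals of members (vertical axes, no unit) in each pool. Bars are means, lines the SD of 4 pools, circles the C57 and triangles the NZB mitochondria label. The ratio of Il1rn to Il1r1 runs from 0.321 to 0.461 (control), 0.991 to 1.48 (KO) and 0.624 to 0.843 (anti-Ly6G), while that of Il1rn to Il1b spreads from 0.882 to 6.86 among the anti-Ly6G pools.

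Il1b, the cytokine gene (ENSMUSG00000027398, chromosome 2, 129364570 to 129371139, minus strand), was low in all pools and did not pass in any comparison. Control pools 1 to 4 read 2.90, 5.31, 3.86 and 5.42 RPM, KO pools 5.41, 4.59, 6.28 and 4.74 RPM, and anti-Ly6G pools 7.46, 3.29, 3.77 and 0.970 RPM. Both the highest and the lowest pool of all 12 were anti-Ly6G pools. The lowest value rests on 12 reads (95% exact Poisson interval 0.501 to 1.69 RPM) and the highest on 118 reads (6.17 to 8.93 RPM), so the gap between these pools exceeds counting error, which is all these intervals cover. The difference from control was 0.27 ± 0.37 (SE) in KO (limma, adjusted p = 0.742), and for anti-Ly6G it was -0.36 ± 0.37 (adjusted p = 0.494), the 95% intervals being -0.54 to 1.07 and -1.16 to 0.45. The anti-Ly6G difference turned to 0.09 without anti-Ly6G 4 and was -0.72 without anti-Ly6G 1. Against anti-Ly6G, KO was higher by 0.62 ± 0.37 (adjusted p = 0.232), by 0.99 without anti-Ly6G 1 (adjusted p = 0.0419) and by 0.18 without anti-Ly6G 4. The length-scaled ratio of Il1rn to Il1b was 1.00 to 1.202 for control, 1.27 to 1.87 for KO, and 0.882, 2.16, 1.54 and 6.86 for anti-Ly6G pools 1 to 4.

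Il1rap, the co-receptor gene (ENSMUSG00000022514, chromosome 16, 26581704 to 26730117, plus strand), differed between KO and anti-Ly6G pools but not detectably between either and control. Control pools 1 to 4 read 97.0, 84.2, 88.2 and 72.7 RPM, KO pools 87.3, 84.4, 58.3 and 66.4 RPM, and anti-Ly6G pools 105, 107, 90.3 and 94.3 RPM. The KO pools with the NZB label, 3 and 4, were the lowest of all 12, and those with the C57 label lay inside the control range. KO was lower than anti-Ly6G by -0.43 ± 0.13 on the log2 scale (SE; limma, adjusted p = 0.0210), where 26.8% of all genes were called. Of the 4 members tested in that comparison, Il1rap and Myd88 were called. All KO pools lay below all anti-Ly6G pools, as for 13.5% of all genes. The Il1rap call was lost without KO 3 (-0.33), KO 4 (-0.39), anti-Ly6G 1 (-0.41) or anti-Ly6G 2 (-0.40). With KO pools 3 and 4 alone, which carry the label of the anti-Ly6G pools, the difference was -0.66 (adjusted p = 0.00469). Against control the differences were -0.22 ± 0.13 for KO (adjusted p = 0.364), and 0.22 ± 0.13 for the antibody group (adjusted p = 0.207). KO pools 1 and 2 alone gave 0.01 against control, and the fit with the mitochondria label as covariate gave anti-Ly6G a difference of 0.68 (adjusted p = 0.0241). The KO pools averaged 85.8 RPM under the C57 and 62.3 RPM under the NZB label, a log2 difference of -0.46 between pairs of pools that is given without a test. A noncoding gene, Gm20319, overlaps 4.86% of the annotated Il1rap exons on the opposite strand, and whether the counting used strand is not given in the sources used here. Gm20319 had means of 43.5 ± 4.41 (control), 42.4 ± 4.86 (KO) and 38.8 ± 3.65 RPM (anti-Ly6G).

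Myd88, the adaptor gene (ENSMUSG00000032508, chromosome 9, 119335934 to 119341411, minus strand), varied little. It read 21.997, 21.2, 19.8 and 22.1 RPM in control pools 1 to 4, 23.8, 21.8, 21.6 and 22.6 RPM in KO pools, and 18.5, 17.2, 21.4 and 17.1 RPM in anti-Ly6G pools. All KO pools lay above all anti-Ly6G pools (13.8% of all genes did), by 0.28 ± 0.08 (SE; limma, adjusted p = 0.0227), and control overlapped both. That call was lost without KO 1 (0.25), KO 4 (0.27) or anti-Ly6G 2 (0.24), and with KO pools 3 and 4 alone (0.26, adjusted p = 0.115) or the label as covariate (0.26, adjusted p = 0.0937). Against control, Myd88 was at 0.08 ± 0.08 for KO (adjusted p = 0.645). For anti-Ly6G it was at -0.20 ± 0.08 (adjusted p = 0.0780), which passed without anti-Ly6G 3 (-0.27, adjusted p = 0.0174). Acaa1a, a peroxisomal thiolase gene at 357 to 381 RPM on average per group, overlaps 11.3% of the Myd88 exons on the opposite strand, and reads of the 2 genes cannot be told apart there without strand. Acaa1a differed by -0.09 in KO and -0.10 in anti-Ly6G against control, and by 0.01 between KO and anti-Ly6G (adjusted p = 0.572, 0.365 and 0.954).

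Irak1, a kinase gene acting next to the adaptor (ENSMUSG00000031392, chromosome X, 74013914 to 74023918, minus strand), did not pass in any comparison. Control pools 1 to 4 read 58.6, 63.1, 63.2 and 63.8 RPM, KO pools 55.2, 53.1, 58.8 and 58.1 RPM, and anti-Ly6G pools 60.5, 53.9, 54.7 and 51.3 RPM. Most KO and anti-Ly6G pools lay below control, with overlap at control pool 1 only. The differences from control were -0.14 ± 0.07 in KO (SE; limma, adjusted p = 0.268, 95% interval -0.29 to 0.0007) and -0.17 ± 0.07 in anti-Ly6G (adjusted p = 0.0624). The anti-Ly6G difference passed without anti-Ly6G 1 (-0.22, adjusted p = 0.0287) and with DESeq2 (-0.18, adjusted p = 0.0428). KO and anti-Ly6G differed by 0.03 ± 0.07 (adjusted p = 0.758), and by less than 0.01 without anti-Ly6G 4. In KO against control 1.12% of all genes were called, and none of Il1b, Il1rap, Myd88 and Irak1 was, by limma, edgeR or DESeq2. In limma none of the 4 had an unadjusted p under 0.05.

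**Figure D3:**
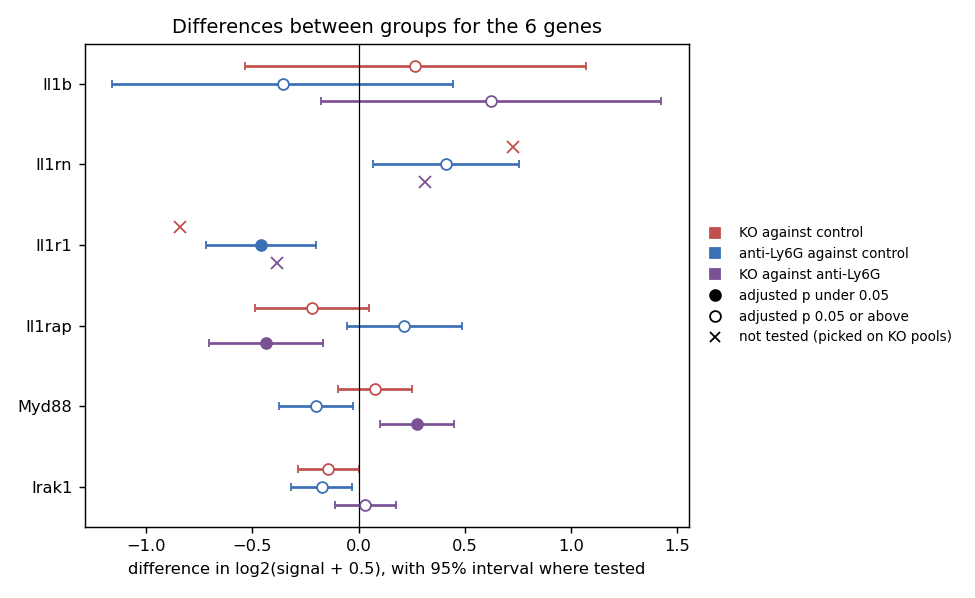
Difference between groups in log2(signal + 0.5) (horizontal axis) for the 6 genes, with 95% intervals from limma where a test was made. Filled points have an adjusted p under 0.05, open points do not, and crosses mark values that were not tested. Filled points are Il1r1 in anti-Ly6G against control (-0.46) and Il1rap (-0.43) and Myd88 (0.28) in KO against anti-Ly6G.

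Further ligands of the family were measured at low signal. Il1a, the other interleukin-1 agonist, was at 4.40 ± 0.890 RPM (control), 3.51 ± 0.463 (KO) and 3.12 ± 1.17 (anti-Ly6G), and Il33, an alarmin, at 2.97 ± 0.466, 2.80 ± 0.350 and 2.16 ± 0.513 RPM. None of the 4 ligands measured passed against control. Over all genes, 1.12% were called in KO against control and 30.4% in anti-Ly6G against control. Il18, an inflammasome-dependent cytokine, was lower in KO (3.66 ± 0.725 RPM) than in anti-Ly6G (5.12 ± 0.855 RPM; limma, adjusted p = 0.0367), a call lost with the pool number as a block (-0.43) and without KO 1, 3 or 4 or anti-Ly6G 1, 2 or 4 (-0.45 to -0.34). Among inhibitors, Sigirr, a family receptor that dampens signalling, rose in anti-Ly6G from 13.9 ± 0.833 to 22.1 ± 4.72 RPM (0.63 ± 0.12 SE, adjusted p = 0.00192). Il18bp, which binds and neutralises interleukin-18, fell from 21.8 ± 1.81 to 15.9 ± 1.62 RPM (-0.45 ± 0.09, adjusted p = 0.00357). Il1a, Il33 and Il18 were named after their values were seen.

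Downstream of the receptor, most called genes were lower in anti-Ly6G than in control, where 15.3% of all genes were called lower and 15.1% higher. Of 18 measured genes of the MyD88-IRAK-TRAF6 module 7 fell, 1 rose and 10 did not pass. Traf6, the ubiquitin ligase of the pathway, fell from 29.6 ± 5.36 to 19.0 ± 1.16 RPM (-0.61, limma, adjusted p = 0.00182), and Map3k8, an NF-κB-linked kinase, from 5.64 ± 1.00 to 2.97 ± 0.754 RPM (-0.84, adjusted p = 0.00261). Tab2, which links TRAF6 to the kinase TAK1, was lower by -0.45 (adjusted p = 0.0143), Irak2, a kinase of the same complex, by -0.50 (adjusted p = 0.0172) and Irak3, an inhibitory IRAK of myeloid cells, by -0.96 (adjusted p = 0.0166), or -0.62 with a pseudocount of 2. The Irak2 call was lost without control 2 (-0.44), and that of Irak3 without control 2 (-0.84) or anti-Ly6G 2 (-0.82).

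Of 13 measured IKK and NF-κB genes, 7 fell, 2 rose and 4 did not pass in anti-Ly6G, beside 15.3% lower and 15.1% higher over all genes. Chuk, a catalytic subunit gene, rose from 90.2 ± 3.61 to 118 ± 9.78 RPM (0.39) and Ikbkg, the regulatory subunit gene, from 52.3 ± 3.68 to 76.8 ± 8.61 RPM (0.54; limma, adjusted p = 0.00198 and 0.00121). Among inhibitor genes, Tnfaip3 fell from 10.0 ± 1.12 to 4.99 ± 0.999 RPM (-0.95, adjusted p = 0.000228), Nfkbib by -0.60 (adjusted p = 0.00451) and Nfkbia by -0.34 (adjusted p = 0.00626). Tnfaip3 and Nfkbia are known NF-κB target genes. Each of the 5 calls held when any 1 pool was left out.

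Among genes of interleukin-1 response, 7 of 13 measured fell in anti-Ly6G, 0 rose and 6 did not pass, beside the same 15.3% lower and 15.1% higher over all genes. Cxcl2, a neutrophil-attracting chemokine, fell from 2.10 ± 0.441 to 0.385 ± 0.0545 RPM (-1.54, limma, adjusted p = 0.000146). The Cxcl2 difference was -0.78 with a pseudocount of 2 and -2.44 with DESeq2, and it passed in both. Its anti-Ly6G mean lay below the pseudocount of 0.5 and below the minimum mean of 1, which the gene met through control. The size of its fall is therefore poorly fixed. Saa3, an acute phase gene, fell from 23.4 ± 4.995 to 10.1 ± 3.84 RPM (-1.24, adjusted p = 0.00523). Zc3h12a, an RNase that degrades cytokine mRNA (-0.79), Icam1, an adhesion molecule (-0.59), and Socs3, a feedback inhibitor of cytokine receptors (-0.97), also fell (adjusted p = 0.00218, 0.00262 and 0.00434). Each of these 5 calls held when any 1 pool was left out. Of 12 Toll-like receptors and partners, 3 fell, 2 rose and 7 did not pass, a share called of 41.7% beside 30.4% over all genes. Toll-like receptors other than TLR3 signal through MyD88. Tlr2 (-0.70), Tlr12 (-0.90) and Tlr13 (-0.99) fell, and Tirap (0.42) and Ly96 (0.67), a pair of genes for adaptor and co-receptor proteins, rose (limma, adjusted p = 0.00370 to 0.0278). Tirap did not pass without control 1 (0.39), control 4 (0.40) or anti-Ly6G 1 (0.34), nor Ly96 without control 1 (0.58) or anti-Ly6G 2 (0.49), and Ly96 was at 0.42 with a pseudocount of 2. Of 15 inflammasome and processing genes 1 fell, Txnip, a regulator of NLRP3 and of glucose uptake, from 449 ± 112 to 279 ± 63.8 RPM (-0.68, adjusted p = 0.0101). That is 6.67% of the list, below the 15.3% called lower over all genes. Nlrp3 itself was at 2.35 ± 0.669 in control and 1.196 ± 0.872 RPM in anti-Ly6G (adjusted p = 0.0554), and Casp1 at 4.21 ± 0.710 and 3.24 ± 1.18 RPM (adjusted p = 0.192), both named after their values were seen.

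Over all roles, 110 genes were listed and 80 measured, of which 27 fell and 6 rose in anti-Ly6G against control, with a median difference of -0.26. Over all 11791 genes 15.3% were called lower and 15.1% higher. When the fit also held the mitochondria label, 6 of the 33 calls were kept (Il18bp, Sigirr, Map3k8, Tnfaip3, Cxcl2 and Vcam1, the last named after its values were seen), and the calls over all genes numbered 973 instead of 3580. Among calls lost there, Irak3 (-1.26), Tlr12 (-1.12), Txnip (-0.98) and Socs3 (-0.92) had differences close to those above or larger. Those of Saa3 (-0.49), Ikbkg (0.28), Nfkbib (-0.20) and Tirap (0.14) were smaller by over 1.5 times.

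Marker genes of several cell types were also called in anti-Ly6G against control, where 15.3% of all genes were called lower and 15.1% higher. The 10 measured of 11 macrophage and monocyte markers summed to 329 to 660 RPM in control pools and 162 to 225 RPM in anti-Ly6G pools, with 5 called lower, among them Cd68 (-1.27) and Csf1r (-0.74) but not Adgre1 (-0.09). The 4 measured of 12 neutrophil markers summed to 12.5 to 21.4 and 6.30 to 10.7 RPM, with 3 called lower, S100a8 (-1.35), S100a9 (-1.58) and Csf3r (-0.58, named after its values were seen), and Cxcr2 at -0.04. The other 8 neutrophil markers, Ly6g among them, were not found among the measured genes, so they have no values here. The 8 Kupffer cell markers summed to 514 to 727 and 362 to 608 RPM, with 4 called lower. The 9 stellate cell markers summed to 392 to 556 and 293 to 444 RPM, with 5 called lower, and the 8 endothelial markers to 211 to 243 and 176 to 201 RPM, with 3 called lower. Both measured bile duct markers, both B cell markers, the 1 measured T and NK cell marker and 1 of 5 hepatocyte markers were also called lower, and 1 of 4 erythroid markers higher. Abundant genes weigh most in the sums, and the macrophage marker Gpnmb averaged 164 RPM in control and 23.0 RPM in anti-Ly6G. Ccr2 (0.50), of the macrophage and monocyte list, Lrat (0.22), a stellate cell marker, and Clec4f (0.15), a Kupffer cell marker, were higher without passing. These 4 markers were named after their values were seen. None of the measured markers was at 0 in all pools. Their part in the changes of pathway genes, Il1r1 included, was not tested.

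In KO against control, 0 of 78 pathway genes tested passed in limma, with Il1r1 and Il1rn left out because they were picked on this comparison, beside 1.12% called over all genes. An unadjusted p under 0.05 was found for 17 of the 78 (21.8%) and for 18.9% of all genes. EdgeR called 1 and DESeq2 4. The edgeR call was Nfkb2, an NF-κB subunit gene named after its values were seen, which went from 9.03 ± 1.08 to 13.8 ± 2.38 RPM (0.58, limma, adjusted p = 0.0501). DESeq2 also called Tlr12 (0.87), Txnip (-0.64) and Traf6 (-0.41). Without control 4, limma called Nfkb2 (0.66), Txnip (-0.74), Traf6 (-0.53) and Socs3 (-0.80), and without KO 4 Nfkb2 (0.67). Over all 11791 genes, 577 were called by DESeq2 and 319 by limma without control 4, against 132 in the main fit. The totals over all genes for edgeR and for limma without KO 4 are not given here. Those pathway calls therefore have no share over all genes beside them. The median difference of the 80 measured genes was 0.07. Macrophage and monocyte markers summed to 475 to 781 RPM in KO pools, with none of the 10 called against control. Lyz2, which is among them and whose locus carries the Cre, was at 143 to 246 RPM against 25.8 to 133 RPM in control. All KO pools lay above all control pools for Lyz2, as for 5.73% of all genes, and the difference was 1.25 (limma, adjusted p = 0.135). Cd68 (0.37), Adgre1 (0.31) and Csf1r (0.17) of that list did not pass either. The endothelial markers summed to 141 to 240 RPM in KO and the stellate cell markers to 494 to 611 RPM, with 0 called in each list. Their part in the Il1r1 and Il1rn levels was not tested.

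Between KO and anti-Ly6G pools, 28 of 78 pathway genes were higher in KO, 7 were lower and 43 did not pass. This comparison shares its pools with both others. Tnfaip3 (1.26 ± 0.14 SE; limma, adjusted p = 3.64e-05), Tlr2 (1.13, adjusted p = 0.000222), Cxcl2 (1.47, adjusted p = 0.000263) and Icam1 (0.82, adjusted p = 0.000415) were higher in KO. Chuk (-0.47, adjusted p = 0.000661) and Tirap (-0.71, adjusted p = 0.00145) were lower. These 6 calls held without any 1 pool and with KO pools 3 and 4 alone. Over all genes 13.6% were called higher and 13.1% lower. The Cxcl2 difference was 0.73 with a pseudocount of 2 and 2.36 with DESeq2. Its anti-Ly6G mean lay below the pseudocount of 0.5 and below the minimum mean of 1, which the gene met through control. The size of the Cxcl2 difference is therefore poorly fixed here too. Irak2 (0.50, adjusted p = 0.0190) did not pass without KO 3 (0.45) or anti-Ly6G 2 (0.46), or with KO pools 3 and 4 alone (0.54). Markers higher in KO here were 7 of 10 for macrophages and monocytes and 6 of 9 for stellate cells. So were 4 of 8 for Kupffer cells and 3 of 4 for neutrophils. Both measured bile duct markers, both measured B cell markers, the 1 measured T and NK cell marker and 1 of 5 hepatocyte markers were higher too. Of 8 endothelial markers 0 were higher and 1 was lower, and 0 of 4 erythroid markers were called. The part of these markers was not tested.

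**Figure D4:**
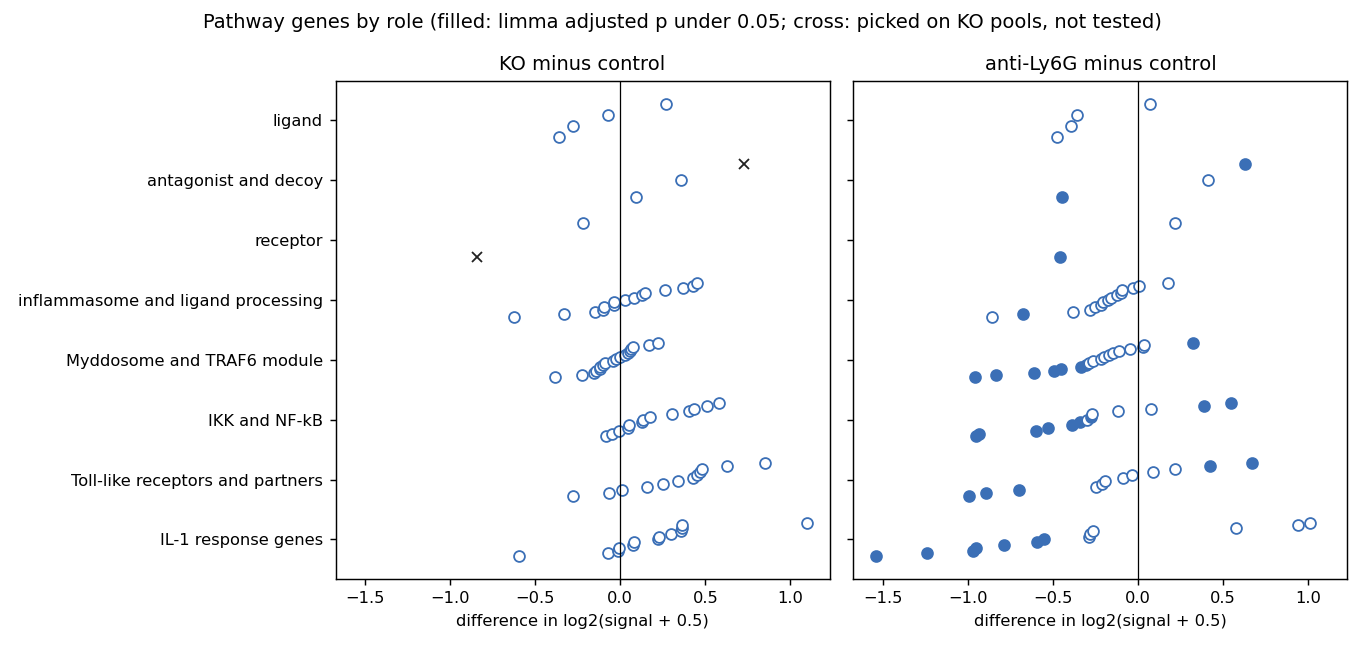
Difference from control in log2(signal + 0.5) (horizontal axes) of 80 measured pathway genes, grouped by role, for KO (left) and anti-Ly6G (right). Filled points have a limma adjusted p under 0.05 and crosses are the picked genes, which were not tested. No tested gene is filled on the left, and 33 are on the right, 27 of them below 0. Both panels use the same 4 control pools.

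The genes whose levels followed Il1r1 most closely over the 12 pools, by Pearson's r of log2(signal + 0.5), were Eef1b2 (0.89), Rpl36al (0.89), Abhd15 (0.89), Serbp1 (0.87) and Ccdc57 (0.86). Abhd15 had a similar size of difference, with 41.9 ± 5.41 RPM for control, 25.4 ± 1.59 for KO and 28.9 ± 3.84 for anti-Ly6G, while Eef1b2, a translation elongation factor gene, moved over a narrow range of 222 ± 6.68, 188 ± 7.46 and 198 ± 5.15 RPM. The closest to Il1rn were Gbp2b (0.90), Paqr7 (0.87), Clec4a3 (0.87), Psmd10 (0.87) and Srek1ip1 (0.87). Gbp2b, an interferon-induced GTPase gene, was at 1.63 ± 0.481, 2.67 ± 0.596 and 1.98 ± 0.189 RPM, and Clec4a3, a lectin gene of myeloid cells, at 2.78 ± 0.717, 5.23 ± 0.569 and 3.68 ± 1.11 RPM. The pools share their group differences, which enter these values of r. They describe likeness among 11791 genes and carry no test.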

How the data were processed

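RNA of 12 liver pools, 2 animals each, was read on a Genome Analyzer IIx (Illumina) as the labels' protocols have it, with 12 males stated for each genotype, a number the pools of 2 do not match. The values deposited by the authors are a normalized signal for each gene. The submitters' processing notes name RSEM 1.2.3, Bowtie2 2.0.6, cutadapt 1.2.1, the build GRCm38 and edgeR, without roles. Annotation, strand setting and the rule for entering genes: not given in the sources used here. Each value was a whole multiple of 1 read within 0.01 (over 99.9% of values per pool), and TMM factors recomputed from these reads returned the deposited scale (ratio 1). A stricter test of low values passed in 4 columns, and the others hold too few. A count of 3 reads equals 0.125 to 0.242 RPM.

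Limma-trend (limma 3.58.1, R 4.3.3) was fitted to log2(signal + 0.5) of 11791 genes with group as the only term, all 12 pools in 1 fit and Benjamini-Hochberg adjustment at 0.05. The pseudocount understates changes of low genes. A minimum mean of 1 in any group removed 0 genes, so a fit without it is the same. Averaged over genes, no 2 pools of a group agreed within sampling noise (mean chi-square per gene of 9.61 to 63.0 for a pair of pools). This average does not describe each single gene. The members and lists were chosen with earlier results of these data known. Alternatives were pseudocounts 0.1 and 2, a signal of at least 5 in 4 pools, edgeR 4.0.16 and DESeq2 1.42.0 on the recovered reads, the pool number as a block, the mitochondria label as covariate, KO pools by label, and each pool left out. The fits were tested on simulated data. Named genes were the 6 members, up to 5 genes of lowest p among those called in anti-Ly6G in each role, and any called in KO. The 5 genes most like Il1r1 and Il1rn and the first 3 measured of each marker list were also named. Markers are given singly for neutrophils and macrophages, with Lrat and Clec4f from other lists. Coordinates and exon lengths came from GENCODE vM21 (GRCm38), promoters from RefSeq (GRCm38.p6). Of each member's 25-base words, 90.4% (Myd88) to 99.9% (Il1r1) occur in no other annotated gene.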

Additional observations from a re-analysis of the deposited data

Results flagged for a closer look

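Among the 29 named genes, each group of 4 pools was searched for a pool far from the other 3, by Dixon's ratio of its gap to the nearest pool over the range, at the 95% critical value. Of 87 groups 4 met this, and chance alone gives about 1 in 20. Il1r1 in control pool 1 was at 34.3 RPM, below 47.1 to 48.0 RPM in the other control pools. Irak1 in the same pool was at 58.6 RPM, below 63.1 to 63.8 RPM, and Ly96 there was at 1.13 RPM. Traf6 in control pool 4 was at 21.6 RPM, against a group mean of 29.6 RPM.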

How the results depend on the processing

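KO against control had 132 genes called, and 577 with DESeq2, 20 with the replicate block, 79 with the mitochondria label as covariate, 58 with KO pools 1 and 2 alone and 3 (without control 2) to 319 (without control 4) with 1 pool left out. Its 0 pathway genes became 1 with pseudocount 2, edgeR, the covariate or KO pools 1 and 2 alone, 4 with DESeq2 and 0 to 4 with 1 pool left out. The totals over all genes with pseudocount 2 and with edgeR are not given here. Anti-Ly6G against control went from 3580 to 973 under the covariate, and its pathway genes from 33 to 7. KO against anti-Ly6G went from 3157 to 2041 with KO pools 3 and 4 alone. The causes were not tested. Pool numbers did not pair the samples: the deviations of same-numbered pools correlated at -0.209 to 0.172. With the replicate block, anti-Ly6G against control had 3445 calls, KO against anti-Ly6G 2984, and 32 of 33 and 32 of 35 pathway calls held in these comparisons (the second lost Il18, Nlrp3 and Casp8).

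Directions turned for differences near 0. Under both the covariate and KO pools 1 and 2 alone, KO against control gave 0.012 for Il1rap, -0.044 for Irak2, -0.081 for Ikbkg, 0.15 for Nfkbib, 0.050 for Cxcl2 and 0.10 for Zc3h12a. Irak2 was also at -2.33e-05 with pseudocount 2, at -0.023 with edgeR and at -0.021 with DESeq2. With 1 pool left out, KO against control ranged from -0.022 to 0.28 for Irak3, -0.094 to 0.13 for Irak2, -0.00065 to 0.10 for Ikbkg, -0.14 to 0.029 for Nfkbib, -0.24 to 0.0073 for Cxcl2 and -0.13 to 0.085 for Zc3h12a. Il1b in anti-Ly6G against control ranged from -0.72 to 0.088. In KO against anti-Ly6G, Irak1 ranged from -0.0015 to 0.077 and Txnip from -0.018 to 0.20. Il1b rests on 12 to 151 reads per pool, which limits its precision. The remaining limits are the NZB label shared by all anti-Ly6G pools, the bulk tissue and the 4 pools of each group.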

Other observations

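The acute phase genes Saa1 and Saa2, hepatocyte targets of interleukin-1 and interleukin-6, were named after their values were seen. In anti-Ly6G pools 1 to 4, Saa1 read 110, 81.5, 1331 and 45.0 RPM and Saa2 58.3, 46.9, 1043 and 28.7 RPM, while the 8 other pools lay between 50.7 and 156 RPM for Saa1 and between 32.9 and 96.7 RPM for Saa2. Lcn2, another acute phase gene, was at 488 RPM in anti-Ly6G pool 3 and at 150 to 179 RPM in the other 3, and at 446 and 538 RPM in KO pools 1 and 2. Il1b was at 3.77 RPM in anti-Ly6G pool 3 and at 7.46 RPM in pool 1. A link between Il1b and the acute phase genes was not tested.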
